A study of Mus musculus with 6 samples.

Results

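Transcripts for the subunits of protein phosphatase 1 (PP1) were examined in the liver of insulin-resistant (IR) mice with and without an injection of insulin. The members were the genes of the count table whose symbol begins with Ppp1c or Ppp1r, without the glycogen-targeting subunits, whose symbols begin with Ppp1r3 and a letter, and without symbols that contain -ps. Of 52 symbols with these beginnings, 7 belonged to glycogen-targeting subunits and 7 contained -ps, which left 38 members among the 54532 genes listed. A gene was tested when its counts passed a filter on low values, and 27 of the 38 members were among the 13377 genes that did.

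PP1 is a serine/threonine phosphatase made of a catalytic subunit bound to a regulatory subunit. The catalytic subunits are encoded by Ppp1ca (alpha), Ppp1cb (beta) and Ppp1cc (gamma), and the regulatory subunit decides where the enzyme acts, on which substrate, or whether it is active at all. In liver, PP1 removes phosphate from the enzymes of glycogen metabolism, and the beta subunit was examined in the study of these mice as a partner of WDR6, a WD40-repeat protein tied there to lipogenesis.

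The IR vehicle and IR insulin groups held 3 male C57BL/6J mice each. Mice in both groups had been given a high-fat diet (HFD) for 6 weeks from 8 weeks of age and had been fasted for 16 h, so the diet and the fast are shared and no chow-fed group was used here. IR insulin mice received insulin intraperitoneally (0.75 units/kg), IR vehicle mice received bovine serum albumin (BSA), its vehicle, and both were sampled 6 h later. Liver is a mixed tissue, so fewer cells of a type and less RNA per cell cannot be told apart in these bulk libraries.

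Total counts per library lay between 18449986 and 21827619, and 1 count was worth 0.0433 to 0.0614 CPM (counts scaled to the library size with the trimmed mean of M-values, TMM). IR vehicle replicate 2 stood apart from the other 5 libraries. It held counts for 16470 genes, against 18389 to 18874 in the others, and its TMM factor was 0.829 (0.971 to 1.09 in the others). The log2 fold changes of the members tested are therefore also plotted without it. All 6 hepatocyte markers were measured in every library, with a summed level of 65836 to 156419 CPM in IR vehicle (highest in replicate 2) and 54434 to 69561 CPM in IR insulin. Alb alone measured 138554 CPM in IR vehicle replicate 2. Alb, Ttr and Serpina1a were highest in that library, while Apoa1 and Hnf4a were lowest there. Cps1 was highest in IR vehicle replicate 3. Skeletal muscle markers were at or near 0, with Acta1, Myh1 and Tnnt3 at 0 in every library.

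The catalytic subunit genes encode closely related proteins from messages of different base composition, which is shown here because the libraries differed along base composition. The coding sequences of Ppp1ca and Ppp1cb matched at 74.8% of 981 aligned bases, and 71.7% of their mismatches fell on the third base of a codon. GC content at the third codon position was 67.7% in Ppp1ca, 54.1% in Ppp1cc and 38.1% in Ppp1cb. The following 90 coding bases (sense strand, build mm10, each window interrupted by an intron) are the in-frame stretch with the largest GC difference between Ppp1ca and Ppp1cb. Capitals mark bases that differ from Ppp1cb, which numbered 27 in Ppp1ca and 24 in Ppp1cc. The stretches lie at chr5:32478164-32480745 for Ppp1cb (coding bases 151 to 240, 34.4% GC), chr19:4192843-4193077 for Ppp1ca (coding bases 154 to 243, 53.3% GC) and chr5:122168273-122168974 for Ppp1cc (coding bases 154 to 243, 44.4% GC).
Ppp1cb: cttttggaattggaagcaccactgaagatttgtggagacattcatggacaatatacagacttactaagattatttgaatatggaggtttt
Ppp1ca: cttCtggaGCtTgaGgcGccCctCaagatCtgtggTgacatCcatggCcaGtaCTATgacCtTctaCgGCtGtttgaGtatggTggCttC
Ppp1cc: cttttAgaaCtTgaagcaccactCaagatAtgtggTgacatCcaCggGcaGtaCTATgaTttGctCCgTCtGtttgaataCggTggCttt

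A further member, Ppp1ccb (chr7:119739926-119742226, plus strand), is annotated as a transcribed processed pseudogene, that is, a copy of a spliced message. Its 972-base single-exon transcript matched the coding sequence of Ppp1cc at 972 of 972 bases, so a read inside this stretch that crosses no intron fits both genes equally well. The 60 bases below are coding bases 26 to 85 of Ppp1cc and are contiguous in Ppp1ccb. Capitals mark the bases that follow the first intron of Ppp1cc (9559 bases, between exons that end at 122158615 and begin at 122168175 on chromosome 5).
Ppp1cc and Ppp1ccb: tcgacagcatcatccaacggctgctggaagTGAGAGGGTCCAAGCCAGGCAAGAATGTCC

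Insulin against vehicle addressed which subunit transcripts responded to insulin in the IR state. No member passed an adjusted p under 0.05 in edgeR's quasi-likelihood F test, with Benjamini-Hochberg adjustment over every gene tested, and the smallest adjusted p was 0.852. No gene of the 13377 passed either, in edgeR, DESeq2 or limma voom. By the study's criteria (a log2 fold change of 0.35 or more in either direction, and p under 0.05 before adjustment), 1 of 27 members was called, Ppp1ccb, which was lower with insulin. The background at these criteria was 2.86% of all genes tested (383 genes) and 1.86% in the lower direction, so 1 member (3.7%) is close to the background. At an absolute log2 fold change above 0.7 and a −log10 p above 1.5, 0 members and 1.17% of all genes were called in edgeR (0.411% higher and 0.755% lower with insulin). With DESeq2, which the study used, Ppp1ccb was past these cut-offs (log2 fold change −0.99, p before adjustment 0.0291). No share over all genes is given for that fit. The study used these stricter cut-offs when it selected candidate genes that responded to insulin. Log2 fold changes lay between −0.99 and 0.88, with 18 members above 0 and 9 below. Their median was 0.19, against −0.02 over all genes, of which 48.6% were above 0. Standard errors (SE) of the members' log2 fold changes ranged from 0.22 to 0.70.

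**Figure D1:**
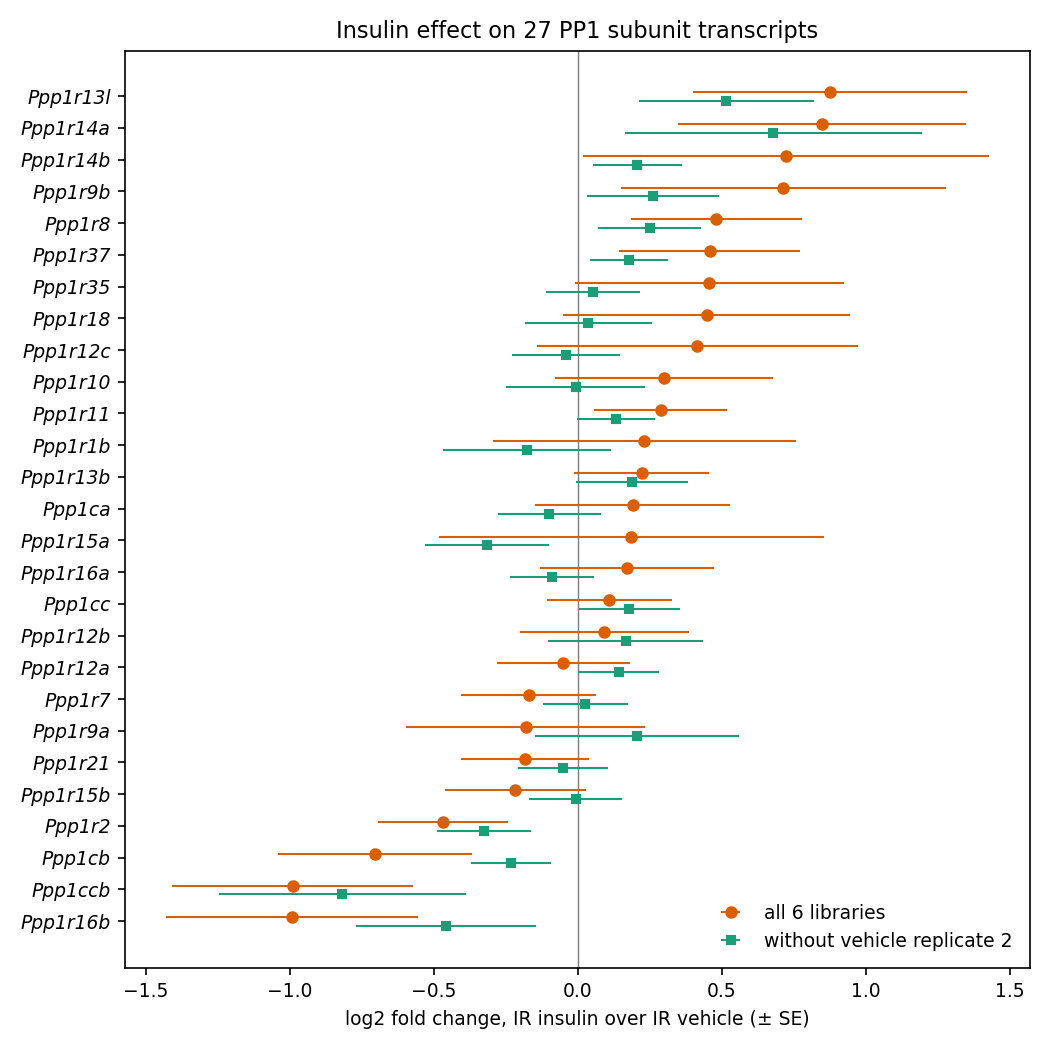
Log2 fold changes (IR insulin over IR vehicle, ± SE) of the 27 members tested, from all 6 libraries (orange circles) and without IR vehicle replicate 2 (green squares). Values ran from −0.99 to 0.88 with all libraries and from −0.82 to 0.68 without that library, and 22 of 27 were closer to 0 without it. The share over all genes is not given, so this count cannot be read as particular to the members.

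In 7 of 27 members (25.9%) the insulin and vehicle values had no overlap, against 12.3% of all genes tested. Ppp1r8, Ppp1r11, Ppp1r13l and Ppp1r37 were higher in every IR insulin library than in every IR vehicle library, as were 6.25% of all genes. Ppp1cb, Ppp1r2 and Ppp1r16b were lower in every IR insulin library, as were 6.04% of all genes. IR vehicle replicate 2 was the lowest library for 15 members (55.6%, against 37.4% of all genes tested) and the highest for 8 (29.6%, against 35.8% of all genes).

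Among the catalytic subunits, Ppp1ca had the highest level per kilobase (kb) of its longest transcript, at a mean of 61.2 CPM per kb over the 6 libraries, followed by Ppp1cb (26.8) and Ppp1cc (26.2). Over single libraries the levels of Ppp1cb (20.2 to 51.8 CPM per kb) covered those of Ppp1cc (20.9 to 30.3), so the order of these neighbours was not resolved. Within libraries, Ppp1cb was above Ppp1cc in IR vehicle replicates 1 and 2 and below it in IR vehicle replicate 3 and every IR insulin library. Ppp1cb also overlapped with Ppp1ca, which ranged from 31.3 to 81.7 CPM per kb. This overlap came from IR vehicle replicate 2 alone, which held 51.8 CPM per kb of Ppp1cb and 31.3 of Ppp1ca. In every other library Ppp1ca was the higher of the pair.

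Ppp1cb, the beta catalytic subunit, measured 139, 309 and 148 CPM in IR vehicle replicates 1 to 3 and 124, 120 and 121 CPM in IR insulin replicates 1 to 3. Every IR vehicle value lay above every IR insulin value, and replicate 2 held more than the other vehicle libraries. The mean of the vehicle libraries was 198 ± 95.6 CPM and that of the insulin libraries 122 ± 1.97 CPM (SD, n = 3 each). In edgeR the log2 fold change of Ppp1cb was −0.70 ± 0.34 (adjusted p = 0.852), and its p before adjustment, 0.0698, missed the study's criterion. In edgeR with an offset for GC content fitted in each library, the log2 fold change was −0.37, with 0.0983 as its p before adjustment. With voom the log2 fold change was −0.28. Without IR vehicle replicate 2 the log2 fold change was −0.23 ± 0.14, with 0.143 as its p before adjustment. Without IR vehicle replicate 1 it was −0.90, and without replicate 3 it was −0.88. In these fits it met the criterion, with edgeR p-values before adjustment of 0.0360 and 0.0353. The background in the same fits was higher, with 9.81% and 6.51% of all genes past the study's criteria.

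Ppp1ca, the alpha subunit, measured 86.2, 46.0 and 120 CPM in IR vehicle replicates 1 to 3, against 95.7, 96.3 and 96.5 CPM with insulin. The insulin libraries were almost equal and lay inside the vehicle range, in which replicate 2 was lowest. Its log2 fold change was 0.19 ± 0.34 (adjusted p = 0.888), and −0.10 ± 0.18 without IR vehicle replicate 2. Ppp1cc, the gamma subunit, measured 52.0, 68.3 and 67.9 CPM in IR vehicle replicates 1 to 3, against 75.5, 64.2 and 63.5 CPM with insulin. The groups overlapped, and the log2 fold change was 0.11 ± 0.22 (adjusted p = 0.902), or −0.0055 without IR vehicle replicate 1.

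**Figure D2:**
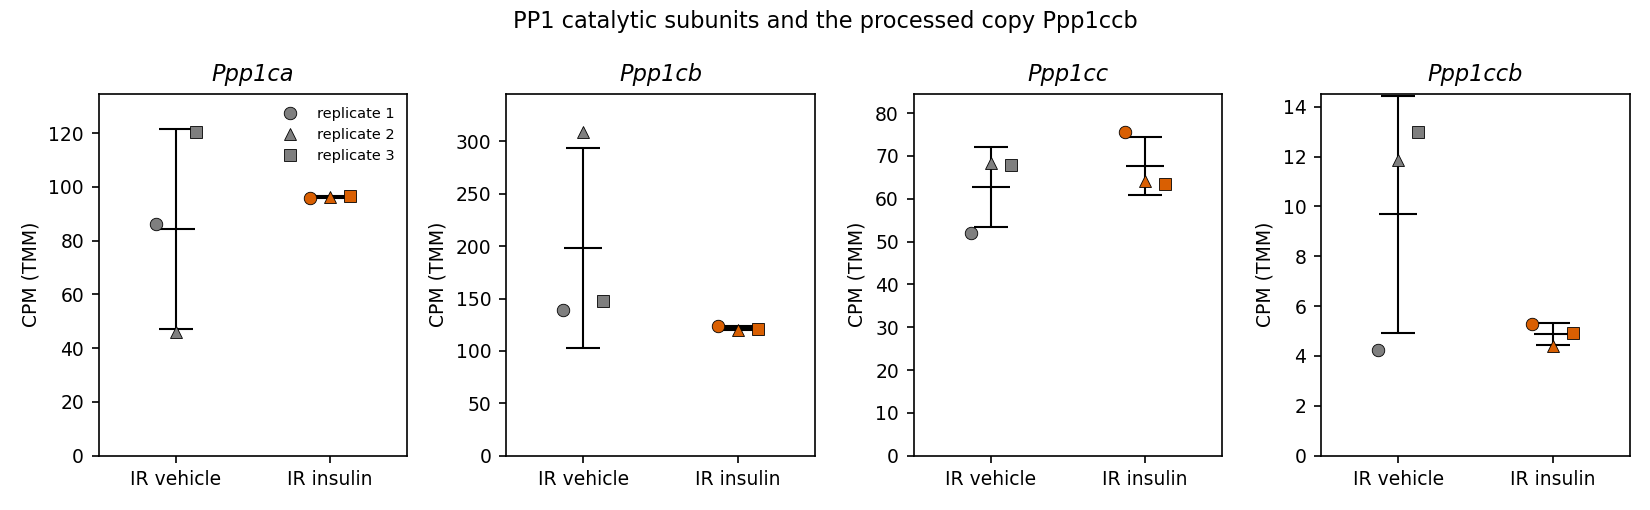
Levels in CPM of the catalytic subunits and of the processed copy Ppp1ccb in each library, with the mean and SD of each group (n = 3). IR vehicle replicate 2 (triangle) reached 309 CPM for Ppp1cb and 46.0 CPM for Ppp1ca, while the insulin libraries stayed within 120 to 124 and 95.7 to 96.5 CPM.

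As a share of the catalytic subunit transcripts (counts per kb, summed over Ppp1ca, Ppp1cb and Ppp1cc), Ppp1cb took 22.7%, 46.9% and 18.5% in IR vehicle and 17.9%, 18.1% and 18.2% in IR insulin. The share was lower in each IR insulin library, and replicate 2 was the library that stood apart in IR vehicle. The difference of means was −11.3 percentage points, with a p of 0.1 in a two-sided exact permutation test, the smallest p that 3 against 3 libraries allow. Without IR vehicle replicate 2 the difference was −2.51 percentage points. Ppp1ca took 57.0%, 28.3% and 61.1% in IR vehicle and 56.0 to 58.9% in IR insulin, with overlapping groups. Ppp1cc took 20.3 to 24.8% in IR vehicle and 22.9 to 26.1% in IR insulin. Without the length term Ppp1cc took 18.8%, 16.1% and 20.2% in IR vehicle and 25.6%, 22.9% and 22.6% in IR insulin, with no overlap (exact permutation p = 0.1). The summed level of the catalytic subunits was 277, 423 and 336 CPM in the vehicle libraries and 295, 281 and 281 CPM in the insulin libraries.

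**Figure D3:**
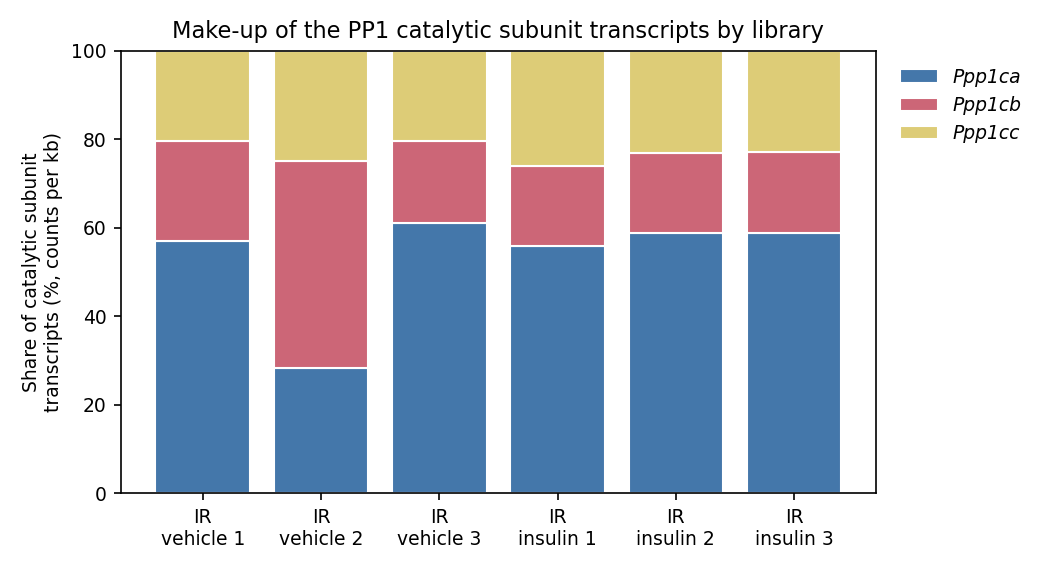
Share of each catalytic subunit in their summed transcripts (percent of counts per kb) in each of the 6 libraries. Ppp1cb took 46.9% in IR vehicle replicate 2 and 17.9 to 22.7% in the other libraries.

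Ppp1ccb measured 4.23, 11.8 and 12.97 CPM in IR vehicle replicates 1 to 3, against 5.27, 4.42 and 4.94 CPM with insulin. The high values were those of IR vehicle replicates 2 and 3, and replicate 1 lay below every insulin library. Its log2 fold change was −0.99 ± 0.42 (adjusted p = 0.852), and an edgeR p before adjustment of 0.0459 put it past the study's criteria. The call was lost without IR vehicle replicate 2 (log2 fold change −0.82), without IR vehicle replicate 3 (−0.72) and without any one insulin library (−1.04 to −0.92), where p before adjustment was 0.0851 to 0.145. Ppp1ccb made up 7.52% (95% exact interval 6.01 to 9.27), 14.8% (12.9 to 16.8) and 16.0% (14.3 to 17.9) of the counts of Ppp1cc and Ppp1ccb together in IR vehicle. In IR insulin it made up 6.52%, 6.44% and 7.22%, all below the vehicle values (exact permutation p = 0.1). These intervals cover counting error only. All 873 windows of 100 bases in its 972-base transcript, and 93.7% of the windows in its longer, 2-exon transcript, also occur in Ppp1cc, so the split between the genes is uncertain. With the counts of both genes added, an alternative chosen after seeing the data, the log2 fold change was 0.0033 ± 0.23 (adjusted p = 0.998).

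Of the 10 inhibitor genes listed, 5 were tested and none passed the study's criteria. Ppp1r2, which encodes inhibitor-2, measured 38.1, 57.8 and 50.9 CPM in IR vehicle replicates 1 to 3, against 35.1, 35.5 and 35.7 CPM with insulin. All vehicle libraries lay above the insulin libraries, which were nearly equal. Its log2 fold change was −0.47 ± 0.23 (adjusted p = 0.852), and −0.33 without IR vehicle replicate 2. Before adjustment the edgeR p was 0.0730, and it met the criterion without IR vehicle replicate 1, at 0.0272 with a log2 fold change of −0.62. In that fit 9.81% of all genes passed. Ppp1r11, which encodes inhibitor-3, measured 33.4, 22.0 and 30.9 CPM in IR vehicle replicates 1 to 3, against 33.6, 35.1 and 36.5 CPM with insulin. The groups met closely, with IR vehicle replicate 1 just under the lowest insulin library, and the log2 fold change was 0.29 ± 0.23 (adjusted p = 0.852), or 0.13 without IR vehicle replicate 2. The other inhibitors tested (Ppp1r1b, Ppp1r14a and Ppp1r14b) had overlapping groups and log2 fold changes of 0.23 to 0.85. Ppp1r1a, which encodes inhibitor-1, was at 0 counts in all libraries, as were Ppp1r1c, Ppp1r14c, Ppp1r14d and Ppp1r17.

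The myosin phosphatase targeting subunits bring the beta catalytic subunit to myosin light chains and membranes. Ppp1r16b, which encodes the membrane-bound TIMAP known from endothelial cells, measured 2.86, 6.26 and 2.48 CPM in IR vehicle replicates 1 to 3, against 2.03, 2.21 and 1.57 CPM with insulin. Every vehicle library lay above every insulin library, with replicate 2 highest. Its log2 fold change was −0.99 ± 0.44 (adjusted p = 0.852), or −0.46 without IR vehicle replicate 2. Before adjustment the edgeR p was 0.0533, just short of the criterion, which it met without IR vehicle replicate 1 (0.0491) or replicate 3 (0.0227). In those fits 9.81% and 6.51% of all genes passed. The summed level of 6 endothelial markers was lowest in IR vehicle replicate 2, at 144 CPM, with 153 to 244 CPM elsewhere. The markers did not move together. Pecam1, Stab2, Cdh5 and Clec4g were lowest in that library, while Lyve1 was highest there, at 38.8 CPM. Kdr measured 28.2 CPM there, above IR vehicle replicate 1 and every insulin library. The summed level of 5 B cell markers was 40.3 CPM in IR vehicle replicate 2 and 2.86 to 10.04 CPM elsewhere, and its part in these values was not tested. Ppp1r12a, which encodes the main myosin-targeting subunit MYPT1, measured 17.6, 25.7 and 18.7 CPM in IR vehicle replicates 1 to 3, against 20.7, 19.8 and 19.3 CPM with insulin. The groups overlapped and the log2 fold change was −0.05 ± 0.23 (adjusted p = 0.957), or 0.14 without IR vehicle replicate 2. Ppp1r12b, Ppp1r12c and Ppp1r16a had overlapping groups too, with log2 fold changes of 0.09 to 0.42.

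The subunits of the eIF2alpha phosphatase lift the block on translation that stress kinases impose. Ppp1r15b, the constitutive form (CReP), measured 84.7, 139 and 106 CPM in IR vehicle replicates 1 to 3, against 92.4, 89.4 and 102 CPM with insulin. Ppp1r15a, the stress-induced form (GADD34), measured 7.67, 0.982 and 10.9 CPM in IR vehicle replicates 1 to 3, against 6.89, 7.53 and 7.93 CPM with insulin. Both had overlapping groups, and IR vehicle replicate 2 was the highest library for Ppp1r15b and the lowest for Ppp1r15a. The log2 fold changes were −0.22 ± 0.25 (adjusted p = 0.855) for Ppp1r15b and 0.19 ± 0.67 (adjusted p = 0.944) for Ppp1r15a. Without IR vehicle replicate 2 they were −0.0073 and −0.31. Per kb, Ppp1r15b averaged 18.3 CPM and Ppp1r15a 2.49 CPM, with no overlap between them in any library.

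Among the nuclear subunits, Ppp1r8 (NIPP1, which holds PP1 at sites of splicing and transcription) measured 13.1, 6.38 and 10.3 CPM in IR vehicle replicates 1 to 3, against 13.4, 13.3 and 14.99 CPM with insulin. The insulin libraries were higher, by a narrow margin over IR vehicle replicate 1. Its log2 fold change was 0.48 ± 0.30 (adjusted p = 0.852). Before adjustment the edgeR p was 0.143, and it met the criterion without IR vehicle replicate 1 (0.0496), with a log2 fold change of 0.73. In that fit 9.81% of all genes passed. The log2 fold change of Ppp1r8 was 0.25 without IR vehicle replicate 2, with 0.206 as its p before adjustment. Ppp1r10 (PNUTS, which directs PP1 to RNA polymerase II) measured 50.4, 17.6 and 33.4 CPM in IR vehicle replicates 1 to 3, against 32.5, 45.2 and 47.1 CPM with insulin. The groups overlapped, the log2 fold change was 0.30 ± 0.38 (adjusted p = 0.859), and it was −0.0062 without IR vehicle replicate 2. Ppp1r7 (SDS22) had a log2 fold change of −0.17 with overlapping groups.

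Ppp1r13l, which encodes the p53-binding protein iASPP, measured 2.33, 0.675 and 1.96 CPM in IR vehicle replicates 1 to 3, against 3.02, 2.55 and 3.60 CPM with insulin. Its insulin libraries were all higher and its log2 fold change was the highest of the members, at 0.88 ± 0.48 (adjusted p = 0.852), or 0.52 without IR vehicle replicate 2. Its relative Ppp1r13b (ASPP1) had a log2 fold change of 0.22. Ppp1r37, a leucine-rich repeat subunit, measured 57.7, 27.9 and 62.8 CPM in IR vehicle replicates 1 to 3, against 67.8, 69.0 and 67.2 CPM with insulin. The insulin libraries were higher, and the log2 fold change was 0.46 ± 0.31 (adjusted p = 0.852), or 0.18 without IR vehicle replicate 2. Ppp1r9b, which encodes the actin-binding scaffold spinophilin, measured 10.4, 2.03 and 12.4 CPM in IR vehicle replicates 1 to 3, against 17.2, 11.9 and 11.7 CPM with insulin. The groups overlapped through IR vehicle replicate 3, and the log2 fold change was 0.71 ± 0.56 (adjusted p = 0.852), or 0.26 without IR vehicle replicate 2. Ppp1r9a, Ppp1r18, Ppp1r21 and Ppp1r35 overlapped between groups, with log2 fold changes from −0.18 to 0.46.

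**Figure D4:**
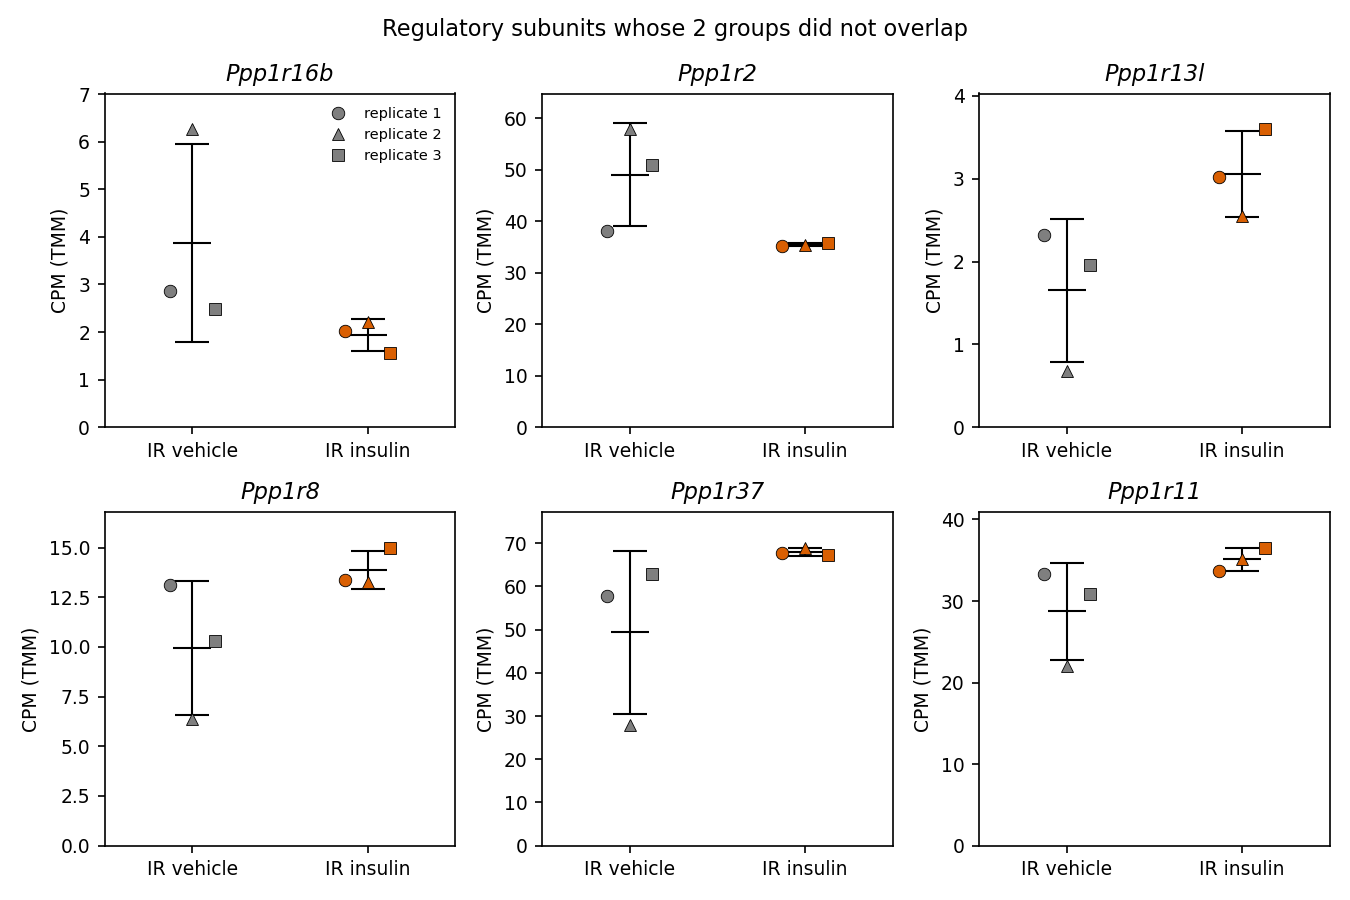
Levels in CPM of the 6 regulatory subunits whose groups did not overlap, by library, with the mean and SD of each group (n = 3). IR vehicle replicate 2 (triangle) was the highest library for Ppp1r16b and Ppp1r2 and the lowest for Ppp1r13l, Ppp1r8, Ppp1r37 and Ppp1r11.

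The deviations of IR vehicle replicate 2 followed the GC content of the members' transcripts. Deviation here is the log2 CPM in that library less the median over the remaining 5. Over the 27 members, Spearman's rho between deviation and GC content was −0.84 in this library and −0.17 to 0.43 in the others, as a description over genes that share the libraries. The relation was not particular to the members, since rho was −0.67 over 13367 genes in this library and −0.15 to 0.31 in the others. The deviations ran from −3.59 to 1.46, with 12 members below −1 and 4 above 1. The lowest was Ppp1r14b (PHI-1, an inhibitor, named after its values were seen), with 65.8% GC and 2.52 CPM in this library against 25.9 to 35.2 CPM elsewhere. The median absolute deviation of the members in this library was 1.06, against 0.69 over all genes.

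The log2 fold changes between the groups followed the same property. Of the 14 members with the higher GC content (54.7 to 65.8%), all 14 had a log2 fold change above 0, with a median of 0.43. Of the 13 with the lower GC content (39.9 to 52.2%), 4 were above 0, with a median of −0.18. Without IR vehicle replicate 2, 8 of the 14 and 7 of the 13 were above 0, with medians of 0.05 and 0.03. With an offset for GC content fitted in each library, 8 of the 14 and 4 of the 13 were above 0, with medians of 0.03 and −0.13. The median over all 27 members was then −0.03, against 0.19 without the offset. Shares over all genes of the same GC ranges are not given. The counts by GC content can therefore not be read as particular to PP1 subunits.

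**Figure D5:**
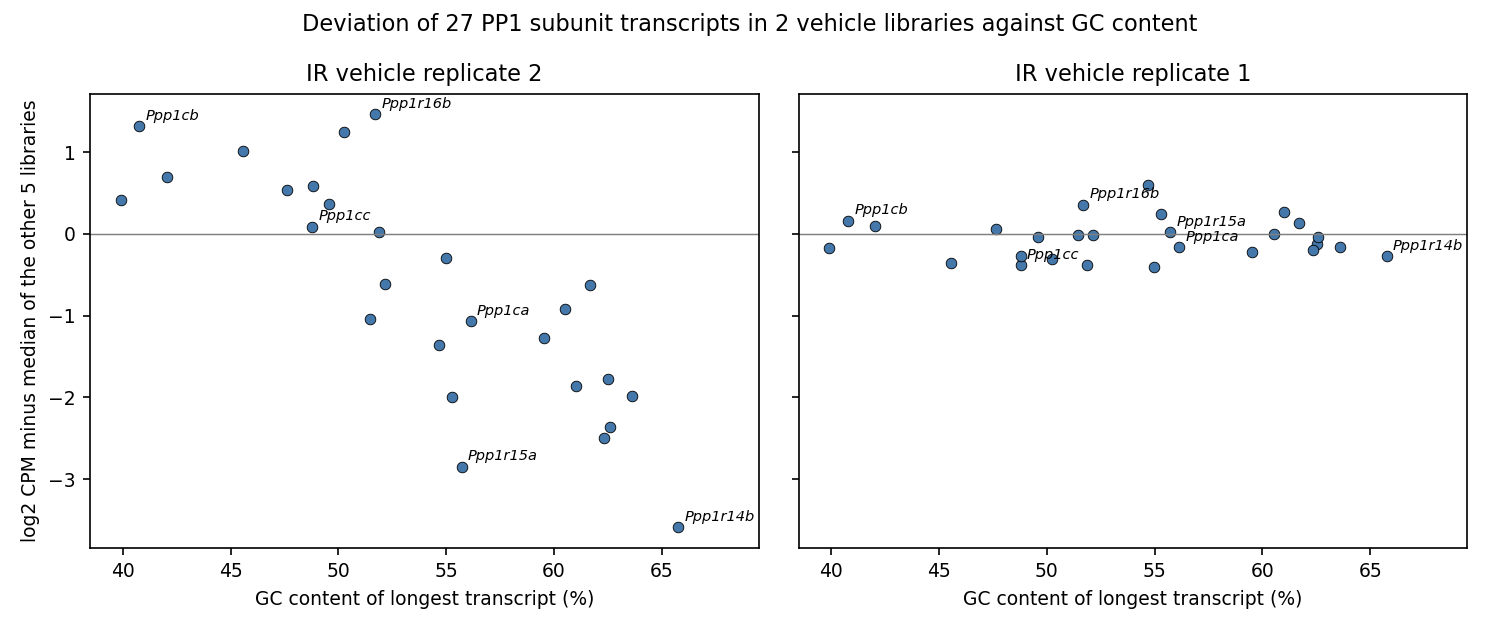
Deviation of each of the 27 members tested (log2 CPM less the median over the remaining 5) against the GC content of its longest transcript (percent), for IR vehicle replicate 2 (left) and IR vehicle replicate 1 (right). The points fall from 1.46 to −3.59 on the left (Spearman's rho −0.84) and stay between −0.40 and 0.59 on the right.

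The SD of the CPM was larger in IR vehicle than in IR insulin for 26 of 27 members (96.3%) and for 84.0% of all genes tested. With IR vehicle replicate 2 left out it was larger for 17 of 27 members (63.0%) and for 61.8% of all genes.

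Partner genes of PP1 were read from lists of 42 genes, of which 39 were tested. In the chain from WDR6 to fatty acid synthase, 2 of 5 genes passed the study's criteria, both higher with insulin: Wdr6 (log2 fold change 0.76 ± 0.29) and Fasn (0.74 ± 0.29), each with an adjusted p = 0.852. At the stricter cut-offs, by which the study selected its candidate genes, 0 of the 5 were called in edgeR. With DESeq2, which the study used, Wdr6 and Fasn were past these cut-offs. Their DESeq2 log2 fold changes were 0.75 and 0.74 (p before adjustment 0.0305 and 0.0274). With the GC offset described above both genes fell short of the study's criteria. Their log2 fold changes were then 0.32 for Wdr6 and 0.32 for Fasn (p before adjustment 0.252 and 0.131 in edgeR). Wdr6 was also lost with voom (0.49) and without IR insulin replicate 3 (0.54). Fasn passed with voom (0.54) and was lost without any one insulin library (0.68 to 0.79). Both passed without IR vehicle replicate 2 (0.61 for Wdr6 and 0.50 for Fasn). Wdr6 was chosen by the study with the help of these libraries, so its direction is not independent evidence. Prkdc, Usf1 and Usf2 had log2 fold changes of −0.28, 0.31 and −0.23 and did not pass. They were 0.21, 0.033 and −0.49 without IR vehicle replicate 2, and with the GC offset Usf2 passed as lower with insulin, at −0.61. None of the 20 tested PP1 interactors with other names passed. Their smallest p-values were those of Csrnp2 (log2 fold change 0.66), Shoc2, a scaffold that brings PP1 to RAF kinases (−0.58), and Tprn (0.67), with p before adjustment of 0.0952 to 0.135 in edgeR. The log2 fold changes were 0.55, −0.16 and 0.37 without IR vehicle replicate 2, and with the GC offset 0.43, −0.25 and 0.18.

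None of the 9 genes around the myosin light chain passed. The light chain gene Myl12a measured 25.5, 20.1 and 28.1 CPM in IR vehicle replicates 1 to 3, against 36.7, 31.8 and 30.95 CPM with insulin (log2 fold change 0.43 ± 0.22, adjusted p = 0.852), with no overlap between the groups. Rhoa, a small GTPase upstream of the myosin kinases, was lower in every insulin library (log2 fold change −0.27), and Rock1 had a log2 fold change of −0.44 (0.051 without IR vehicle replicate 2). None of the 5 genes of the eIF2alpha circuit passed, and the kinases Eif2ak4 and Eif2ak3 had log2 fold changes of 0.31 and 0.22, with −0.38 (0.023 without IR vehicle replicate 2) for Eif2s1, which encodes eIF2alpha itself. Over the 39 partner genes the median log2 fold change was 0.04, with 22 above 0.

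Levels of the other marker lists overlapped between the groups. The summed levels in IR vehicle and IR insulin were 131 to 240 and 147 to 202 CPM for leukocytes, 144 to 244 and 153 to 166 CPM for endothelium, and 32.2 to 36.2 and 29.0 to 38.7 CPM for smooth muscle. They were 205 to 275 and 156 to 257 CPM for stellate cells, 223 to 325 and 242 to 483 CPM for Kupffer cells, and 19.8 to 45.4 and 23.0 to 50.8 CPM for bile duct. Their part in the levels of the PP1 subunits was not tested.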

How the data were processed

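RNA sequencing libraries from 6 livers, 1 per mouse, were compared by the groups and replicate numbers in the labels. The authors deposited whole-number read counts per gene, not normalized. Per the study's methods and the submitters' processing notes, the libraries were made with the NEBNext Ultra kit for an Illumina HiSeq, and the authors aligned to mm10 with Bowtie2 (2.2.3). The counting program, annotation and strand setting are not given in the sources used here, so counts of members that overlap another gene (17 of the 27 tested) are uncertain. Reads across exon junctions may be lost because Bowtie2 does not splice. For Ppp1cc such reads may instead be placed on Ppp1ccb, where the same bases are contiguous, and this was not tested. All sample columns were used, and no columns hold the authors' comparisons.

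Counts were fitted in edgeR (4.0.16, R 4.3.3) with TMM scaling, filterByExpr (minimum count 10, minimum total 15), the quasi-likelihood F test on all 6 libraries without covariates, and Benjamini-Hochberg adjustment over 13377 genes. The SE was derived from the F statistic, and log2 CPM used a prior count of 2. Total counts of 18449986 to 21827619 and a biological coefficient of variation of 0.357 set the precision. The edgeR fit was run on simulated counts alone, with a replicate block and with a GC offset, as were DESeq2 and voom. The other alternatives were not. Shares were compared by exact permutation tests. The 14 alternatives were DESeq2 (1.42.0), limma voom (3.58.1) with sample quality weights, RLE and upper-quartile scaling, no count filter, a GC offset (loess, span 0.5), a replicate block, the block with the GC offset, and each of 6 libraries left out. Coordinates, lengths and GC content came from a GENCODE annotation of the same build, and coding sequences were read from its transcripts and aligned in Biopython (1.88).

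The members, role groups, partner lists and marker lists were chosen with earlier results of these data known. Values in every library were given for the catalytic subunits, members at an unadjusted p under 0.05, members whose groups did not overlap, the smallest p of each role group, and Ppp1r15a, Ppp1r10, Ppp1r12a and Ppp1r1a. Of the partner lists, the 5 genes from Wdr6 to Fasn and the 3 smallest p-values of each other list were named.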

Additional observations from a re-analysis of the deposited data

How the results depend on the processing

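No member had an adjusted p under 0.05 in edgeR, DESeq2 or limma under any of the 14 alternatives. The number of members at an unadjusted p under 0.05, all of which also passed the study's fold criterion, was 1 in the reported fit. It was 2 with DESeq2 and 2 with the GC offset (Ppp1ccb and Ppp1r16b in both), where 2.38% and 3.53% of all genes passed. Without the count filter it was 3 (Ppp1r42 added, from 12 counts in 1 library), where 3.22% passed. DESeq2 and the fit without the filter covered 33 members and 23040 genes. The number of members was 0 with upper-quartile scaling (2.61% of all genes), 0 with voom (1.59%) and 0 with the replicate block (2.40%). Leaving out 1 library gave 0 to 5 members. The 5 were without IR vehicle replicate 1 (Ppp1cb, Ppp1ccb, Ppp1r2, Ppp1r8 and Ppp1r16b), where 9.81% of all genes passed, and the 2 without IR vehicle replicate 3 were Ppp1cb and Ppp1r16b, where 6.51% passed. Without IR insulin replicate 2 it was Ppp1r14a alone, where 1.05% of all genes passed. Over all genes the count was 383, 742 without the filter, 213 with voom and 99 to 1349 with 1 library left out. Of the partner genes, 2 passed in the reported fit, Wdr6 and Fasn. The 1 that passed with the GC offset and the 1 with the block and the GC offset were Usf2, lower with insulin (−0.61 and −0.57), and Wdr6 and Fasn passed in neither (0.32 each in both). With 1 library left out 0 to 4 passed. At the stricter cut-offs Ppp1ccb, not called in the reported fit, was called with DESeq2 and with the GC offset. With the offset its log2 fold change was −1.09 (edgeR p before adjustment 0.0290). The cause of these moves was not tested.

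Same-numbered libraries deviated together with correlations of −0.04, 0.07 and 0.02, so the numbers were not taken to pair mice. With the replicate block 0 members and 321 genes in all passed.

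The median of the members was −0.03 with the GC offset, −0.04 with the offset and the block, and 0.04 to 0.35 with 1 library left out. The Ppp1cb share differed by −2.51 to −16.7 percentage points with 1 library left out and by −13.05 without a length term.

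Of 407 log2 fold changes of named genes under alternatives, 22 (in 12 genes) changed sign. With the GC offset Ppp1ca was −0.092, Ppp1r37 −0.024 and Ppp1r12a 0.24. With the block and the GC offset Ppp1ca was −0.081, Ppp1r37 −0.019, Ppp1r12a 0.25 and Prkdc 0.017. With voom Ppp1r15a was −0.019, Ppp1r15b 0.012, Ppp1r10 −0.11 and Ppp1r12a 0.14, and with upper-quartile scaling Ppp1r12a was 0.0039. With 1 library left out the lowest and highest values were −0.098 and 0.54 for Ppp1ca, −0.0055 and 0.18 for Ppp1cc, −0.31 and 0.77 for Ppp1r15a, −0.15 and 0.14 for Ppp1r12a, −0.0062 and 0.71 for Ppp1r10, −0.60 and 0.21 for Prkdc, −0.49 and 0.28 for Usf2, −0.68 and 0.051 for Rock1, −0.59 and 0.023 for Eif2s1, and −0.055 and 0.56 for Eif2ak3. The value on the other side of 0 came without IR vehicle replicate 2, except for Usf2 and Eif2ak3 (without replicate 3) and Ppp1cc (without replicate 1).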

Other observations

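Of the 11 members that were not tested, 5 had no count in any library, and 3 counts, the limit that a count of 0 allows, correspond to 0.1299 to 0.184 CPM. Ppp1r42 had 12 counts and Ppp1r32 had 5 counts, all of them in IR vehicle replicate 3. Ppp1r36 had 3 counts, all in IR insulin replicate 1. Ppp1r27 had 2 counts in each of IR vehicle replicates 1 and 3, and Ppp1r26 had 1 count in IR vehicle replicate 3. Ppp1r18os, an antisense transcript that overlaps Ppp1r18, had 0 to 3 counts per library, and since the strand setting of the counting is not stated its reads cannot be told apart from those of Ppp1r18.

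RefSeq promoters (GRCm38.p6, the 250 bases before each start) were matched for 23 of the 27 members tested, giving 31 promoters. Their median GC content was 62.4%, against 59.2% over 12751 promoters of genes that passed the same count filter and 52.4% over 32851 promoters of all genes. The GC box GGGCGG, read on both strands, occurred in 20 of the 31 (64.5%), in 55.0% of the promoters of genes tested and in 32.7% of all promoters. The other motifs searched on both strands, none of which contains another, were TATAAA (12.9% of the members' promoters and 7.09% of those of genes tested), CCAAT (19.4% and 35.1%), CACGTG (3.23% and 8.21%) and TGACGTCA (6.45% and 2.43%). Among all promoters these shares were 12.4%, 33.9%, 6.02% and 1.55%, and the matches are a description of letters and not of binding.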
